A study of Mus musculus with 9 samples.

Results

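The DMRT genes encode transcription factors that bind DNA through the DM domain, a zinc-binding module named after the fly Doublesex and worm MAB-3 proteins. The 6 members described here are Dmrt1, Dmrt2, Dmrt3, Dmrta1, Dmrta2 and Dmrtb1. They were chosen as genes of this family, with earlier results of these data known, and all 6 were found among the 46078 gene identifiers counted. The 5 further mouse genes with a Dmrt symbol, Dmrtc1a, Dmrtc1b, Dmrtc1c1, Dmrtc1c2 and Dmrtc2, were used for comparison and are called the relatives. The samples were 9 poly(A) RNA-seq libraries of EGFP-SSCs, a wild-type mouse spermatogonial stem cell line marked with EGFP, with 3 biological replicates per time (0 h, 24 h or 48 h). The 0 h cells grew in the normal culture, on mitomycin C-exposed embryonic fibroblasts in a medium with GDNF, basic FGF and EGF. For 24 h and 48 h the cells were mixed with somatic cells from testes of busulfan-exposed mice of 3 to 7 days postpartum, in a medium with BMP-4/7, retinoic acid, activin A, testosterone, FSH and pituitary extract, and EGFP-positive cells were then sorted. Time, medium and co-culture changed together between 0 h and the later groups, so that their effects cannot be told apart. The labels give the sort for 24 h and 48 h and do not state it for 0 h. The paper states that SSCs from different culture stages were sorted by flow cytometry before RNA-seq, without naming 0 h there. All 9 libraries came from 1 line.

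As background, Dmrt1 is expressed in spermatogonia and in Sertoli cells. In spermatogonia it holds back retinoic acid-dependent meiotic entry and Stra8, activates Sohlh1, and is needed for stem cell maintenance. Dmrtb1, also called Dmrt6, acts in differentiating spermatogonia at the passage from mitosis to meiosis. Dmrt2 is known for somite development and Dmrt3 for spinal interneurons that coordinate gait. Dmrta1 and Dmrta2, also called Dmrt4 and Dmrt5, act in the developing forebrain. Among the relatives, Dmrtc2, also called Dmrt7, is required in male meiotic prophase, and the Dmrtc1 genes lie on the X chromosome.

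The coding sequences show what unites the family. A 129-base stretch that encodes the DM domain pattern of cysteines and histidines was found in the GENCODE transcript of every member and of Dmrtc2, and in none of the 4 Dmrtc1 genes. Its first 48 bases are shown from the 5′ end of the coding strand, in GRCm38, because a reader can see in them both the zinc-binding codons and the differences between members. Capitals mark the codons of the first pair of cysteines and of the first histidine.
Dmrt1, chr19:25506073-25506120, plus strand, exon 1: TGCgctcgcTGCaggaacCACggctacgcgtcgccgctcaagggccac
Dmrt3, chr19:25610883-25610930, plus strand, exon 1: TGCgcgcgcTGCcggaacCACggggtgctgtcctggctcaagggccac
Dmrt2, chr19:25673818-25673865, plus strand, exon 2: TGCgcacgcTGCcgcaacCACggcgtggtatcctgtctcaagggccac
Dmrta1, chr4:89688564-89688611, plus strand, exon 1: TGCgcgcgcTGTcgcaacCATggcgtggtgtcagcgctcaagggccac
Dmrta2, chr4:109980067-109980114, plus strand, exon 2: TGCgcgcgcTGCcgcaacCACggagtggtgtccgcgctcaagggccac
Dmrtb1, chr4:107684097-107684144, minus strand, exon 1: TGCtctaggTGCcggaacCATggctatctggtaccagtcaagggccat

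Over the 129 bases, Dmrta1 and Dmrta2 were the most alike of the 15 pairs of members, with 86.8% identical bases. The 5 pairs that held Dmrtb1 had 62.0% to 69.8% identity, below every pair without it, where the lowest was 75.2%. The longest identical run in any pair was 26 bases. No stretch of 75 bases of any member's transcript matched another gene at 97% identity, so that reads of the members can be told apart from those of other genes, and their exons overlapped those of other genes by 0 bases.

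Dmrt1, Dmrt3 and Dmrt2 form a cluster on chromosome 19 in GRCm38, all on the plus strand. Dmrt1 spans 25505618 to 25604329, Dmrt3 spans 25610301 to 25623921 and Dmrt2 spans 25672411 to 25678991. Dmrt3 starts 5971 bases after the end of Dmrt1, and Dmrt2 starts 48489 bases after the end of Dmrt3. The other members lie on chromosome 4, Dmrta1 at 89679436 to 89694772, Dmrtb1 at 107676290 to 107684230 on the minus strand, and Dmrta2 at 109978053 to 109983687.

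Library totals ran from 16825251 to 22201892 counts. Levels are given as CPM, the usual depth-scaled counts, with TMM library sizes over the 9 libraries, and as FPKM, the same per kilobase of exon, where genes are compared with each other. The germ cell identity of the samples was visible in all 9 libraries, since 10 germ cell markers such as Ddx4 and Dazl summed to 2061 to 3028 CPM at 0 h, 2590 to 2785 after 24 h and 2789 to 2995 after 48 h. Markers of somatic cells were present too and moved with time. The 10 Sertoli markers summed to 16.6 to 20.0 CPM at 0 h, 58.0 to 92.9 after 24 h and 73.3 to 76.9 after 48 h, and the 8 fibroblast markers to 316 to 411, 2139 to 2496 and 2943 to 3262 CPM. Col1a1, Col1a2 and Col3a1 made up most of the fibroblast sums. Of the 8, 5 were called higher and Thy1 lower against 0 h at each later time. Of all genes tested, 11.4% and 13.0% were called higher and 14.2% and 18.5% lower. The 6 myoid markers summed to 13.7 to 15.6, 146 to 207 and 263 to 321 CPM, and the 6 Leydig markers to 4.48 to 6.79, 24.6 to 38.5 and 25.2 to 32.5. The sum of 5 endothelial markers was 43.3 to 47.3 CPM at 0 h, 14.5 to 18.9 after 24 h and 12.3 to 12.8 after 48 h, with Kdr and Pecam1 lower than at 0 h and Tek higher. Of 5 macrophage markers, Cd68 made up most of a sum of 15.5 to 18.3 CPM at 0 h and fell, while Csf1r was called higher at 24 h, and the later sums were 6.20 to 10.1 and 6.33 to 9.21.

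Per length of exon, Dmrt1 was far above the other members at every time. Its mean FPKM was 138.6 ± 28.4 (SD, n = 3) at 0 h, 229.6 ± 14.7 after 24 h and 224.8 ± 11.2 after 48 h, which placed it 318th, 142nd and 159th among the 33756 genes with a count in any library. Dmrt3 and Dmrtb1 followed, with 15.0 ± 2.19 and 6.85 ± 1.12 FPKM at 0 h. Dmrt2 at 0.815 ± 0.285 and Dmrta2 at 0.662 ± 0.266 FPKM overlapped at 0 h, and Dmrta1 was lowest at 0.0365 ± 0.0302.

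The order of the lower members shifted with time. At 24 h Dmrt3 and Dmrtb1 stood at 5.86 ± 0.0952 and 4.79 ± 0.422 FPKM, still without overlap, and at 48 h they overlapped, at 7.55 ± 0.255 and 7.01 ± 0.971. Dmrta2 and Dmrt2 overlapped again at 24 h, at 0.733 ± 0.0942 and 0.619 ± 0.0840 FPKM. Within each library Dmrta2 was above Dmrt2 in 3 of 3 at 24 h and in 3 of 3 at 48 h, when the groups no longer overlapped, at 1.61 ± 0.312 against 0.605 ± 0.0598. Dmrt1 made up 84.4% to 86.0% of the summed FPKM of the members at 0 h, 94.7% to 95.4% at 24 h and 92.9% to 93.4% at 48 h.

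**Figure D1:**
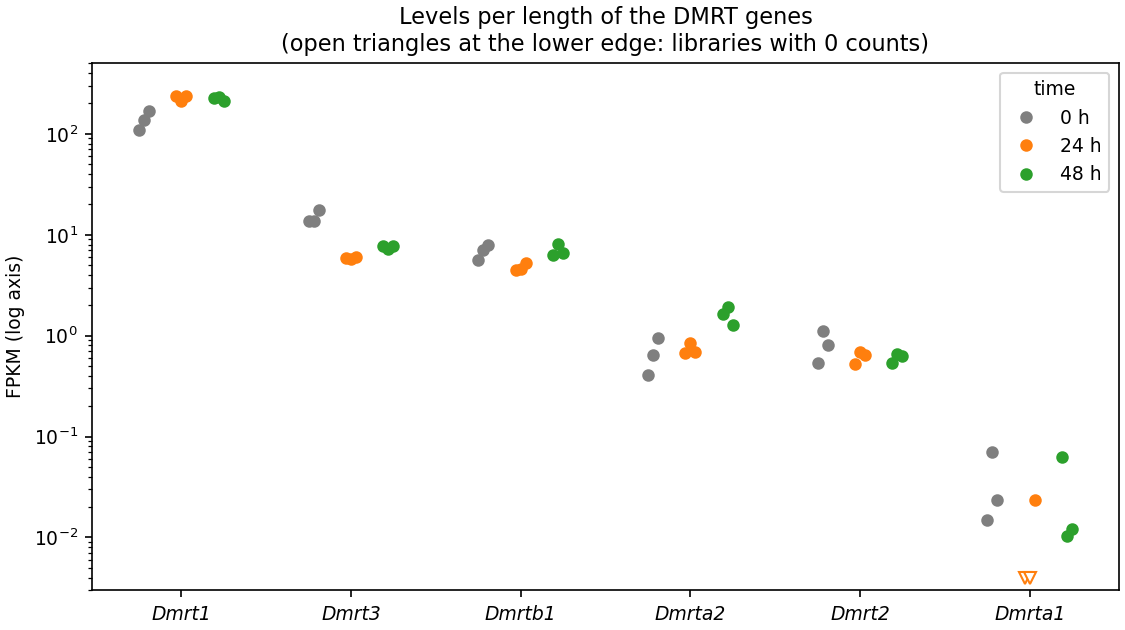
Level per length (FPKM, log axis) of each member, 1 point per library, coloured by time. Dmrt1 lies above 100 in all 9 libraries, Dmrt3 lies above Dmrtb1 at 0 h and overlaps it at 48 h, Dmrta2 separates from Dmrt2 at 48 h, and open triangles mark the 2 libraries at 24 h with 0 counts of Dmrta1.

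Between 24 h and 0 h, 2 of the 5 members that passed the filter on low counts were called, Dmrt1 higher and Dmrt3 lower, where 25.5% of the 17592 genes tested were called. Between 48 h and 0 h, 3 of 5 were called, Dmrt1 and Dmrta2 higher and Dmrt3 lower, against 31.6% of 17755 genes. From 24 h to 48 h, 3 of 5 were called and all were higher, Dmrt3, Dmrta2 and Dmrtb1, against 21.3% of 17499 genes. With all 9 libraries in 1 fit, none of these 3 was called between 24 h and 48 h (edgeR adjusted p = 0.104, 0.0552 and 0.0782), although all 3 had an unadjusted p under 0.05 in that fit and DESeq2 called 3. The median log2 fold change of the 5 members was -0.39, 0.03 and 0.36 in these comparisons, beside 0.01, 0.02 and -0.00453 for all genes tested. Dmrta1 did not pass the filter in any comparison. Called means that the quasi-likelihood test in edgeR gave a p of up to 0.05 after adjustment by Benjamini-Hochberg over all genes tested, and both comparisons with 0 h share the same 3 control libraries.

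**Figure D2:**
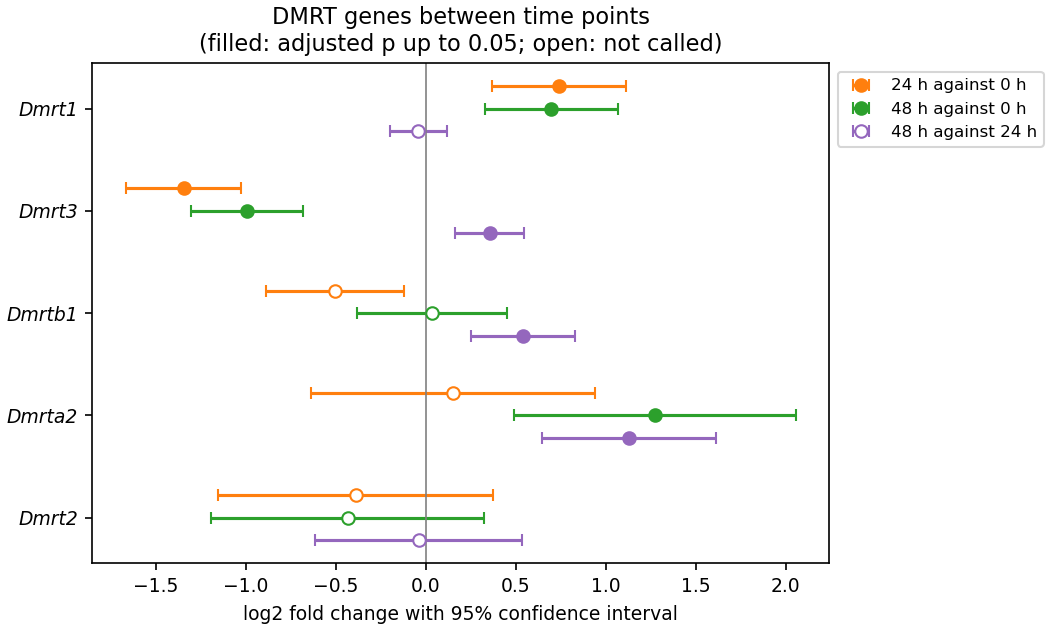
Log2 fold change of each tested member in the 3 comparisons, with its 95% confidence interval. Filled points, which mark calls, lie right of 0 for Dmrt1 and left of 0 for Dmrt3 in both comparisons with 0 h, and right of 0 for Dmrt3, Dmrtb1 and Dmrta2 from 24 h to 48 h.

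Dmrt1, the germline and Sertoli cell member, was higher at both later times than at 0 h. At 0 h its 3 libraries held 286, 359 and 433 CPM (4594, 7243 and 8707 counts). At 24 h they held 613, 552 and 622 CPM, and at 48 h 591, 607 and 551. All 6 later libraries lay above all 3 at 0 h, while the 24 h and 48 h libraries overlapped. The fold over 0 h was 1.67 at 24 h (log2 0.74, SE 0.16, edgeR adjusted p = 0.0129) and 1.62 at 48 h (log2 0.70, SE 0.16, edgeR adjusted p = 0.0135). Between the later groups the log2 difference was -0.04, with a 95% interval of -0.20 to 0.12 and an edgeR adjusted p of 0.710.

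The 0 h libraries were the more variable, with a coefficient of variation for Dmrt1 of 20.5% against 6.39% at 24 h and 4.99% at 48 h. With a library left out, the rise at 24 h kept its direction at log2 0.60 to 0.93, but was no longer called without 0 h replicate 2 (edgeR adjusted p = 0.0655), 24 h replicate 1 (0.0599) or 24 h replicate 3 (0.0542). At 48 h the log2 value ran from 0.56 to 0.88, and the call was lost without 0 h replicate 2 (edgeR adjusted p = 0.0545), 48 h replicate 1 (0.0567) or 48 h replicate 2 (0.0579).

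In bulk RNA a change in the number of cells of a type and a change in RNA per cell cannot be told apart. Sertoli markers moved with Dmrt1, as 7 of the 8 that were tested rose at 24 h and at 48 h, Wt1, Amh, Gata4, Cldn11, Inha, Dhh and Aard, beside 11.4% and 13.0% of all genes called higher. The Sertoli factor Sox9 fell at 24 h, and Rhox8 and Fshr were at 0 counts in all libraries at 0 h, with Fshr at 2 counts or fewer later. All 10 Sertoli markers together reached at most 92.9 CPM, and the mean of Dmrt1 at 24 h was above that at 0 h by 236 CPM. Their part in the rise of Dmrt1 was not tested. Ratios to germ cell transcripts of the same library were added after the values were seen. Dmrt1 over the germ cell marker Ddx4 was 0.621, 0.904 and 2.04 at 0 h, 1.87, 1.51 and 1.63 after 24 h and 1.53, 1.66 and 1.40 after 48 h. On this ratio 0 h replicate 3 lay above every later library, so the groups overlapped. Over the 10 summed germ cell markers the ratio was 0.0945, 0.144 and 0.210 at 0 h, against 0.199 to 0.237 after 24 h and 0.184 to 0.218 after 48 h, again with 0 h replicate 3 inside the later range.

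**Figure D3:**
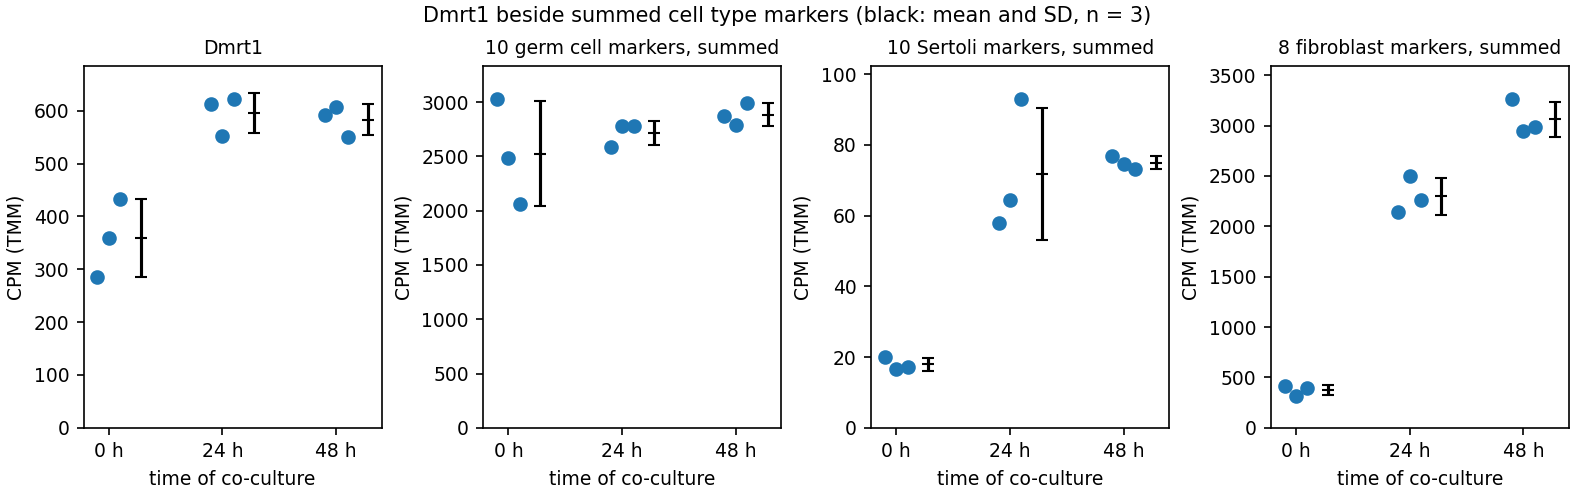
CPM of Dmrt1 and summed CPM of germ cell, Sertoli and fibroblast markers in each library (points), with mean and SD (black, n = 3). Dmrt1 goes from 286 to 433 at 0 h to 551 to 622 later, the germ cell sums of the 3 times overlap, and the Sertoli and fibroblast sums are higher in all 6 later libraries.

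Dmrt3, which starts just beyond the end of Dmrt1, moved the opposite way. At 0 h the libraries held 33.6, 33.7 and 42.9 CPM (539, 679 and 862 counts). At 24 h they held 14.2, 14.2 and 14.6 CPM, and at 48 h 18.7, 17.8 and 18.9. None of the 3 groups overlapped another. Dmrt3 was 2.54-fold lower at 24 h than at 0 h (log2 -1.34, SE 0.14, edgeR adjusted p = 0.000482) and 1.99-fold lower at 48 h (log2 -0.99, SE 0.13, edgeR adjusted p = 0.00142). Both falls were called with any 1 library left out, at log2 -1.42 to -1.19 and -1.05 to -0.84.

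A part of the fall was recovered on the second day. Between 24 h and 48 h the gene rose 1.28-fold (log2 0.36, SE 0.09, edgeR adjusted p = 0.0185). This smaller step was no longer called without 24 h replicate 1 (edgeR adjusted p = 0.0621), 24 h replicate 2 (0.0545), 48 h replicate 1 (0.0603) or 48 h replicate 3 (0.0609), at log2 0.34 to 0.38 over all 6 omissions. In FPKM, the ratio of Dmrt1 to Dmrt3 was 8.03 to 10.1 at 0 h, 36.8 to 40.6 after 24 h and 27.4 to 32.2 after 48 h.

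Dmrt2, the last gene of the cluster, was low and was called in no comparison. Its libraries held 1.25, 2.58 and 1.89 CPM at 0 h (20, 52 and 38 counts), 1.23, 1.60 and 1.51 at 24 h, and 1.26, 1.52 and 1.47 at 48 h. Later values lay inside the 0 h range, except the 1.23 CPM of 24 h replicate 1 just under it. The log2 difference from 0 h was -0.39 at 24 h (95% interval -1.16 to 0.38, edgeR adjusted p = 0.448) and -0.43 at 48 h (-1.19 to 0.33, edgeR adjusted p = 0.357). At 20 to 52 counts per library, changes inside these intervals were not excluded. The neighbour before the cluster, Kank1, held 29.1 ± 3.78 CPM at 0 h, 27.3 ± 2.19 after 24 h and 31.4 ± 1.99 after 48 h and was not called either. Smarca2, the next protein-coding gene after the cluster and a subunit of the SWI/SNF chromatin remodeller, lies 926058 bases after Dmrt2. It fell 1.63-fold at 24 h and 2.62-fold at 48 h against 0 h (edgeR adjusted p = 0.0109 and 0.000439). Of all genes tested, 14.2% and 18.5% were called lower in these comparisons.

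**Figure D4:**
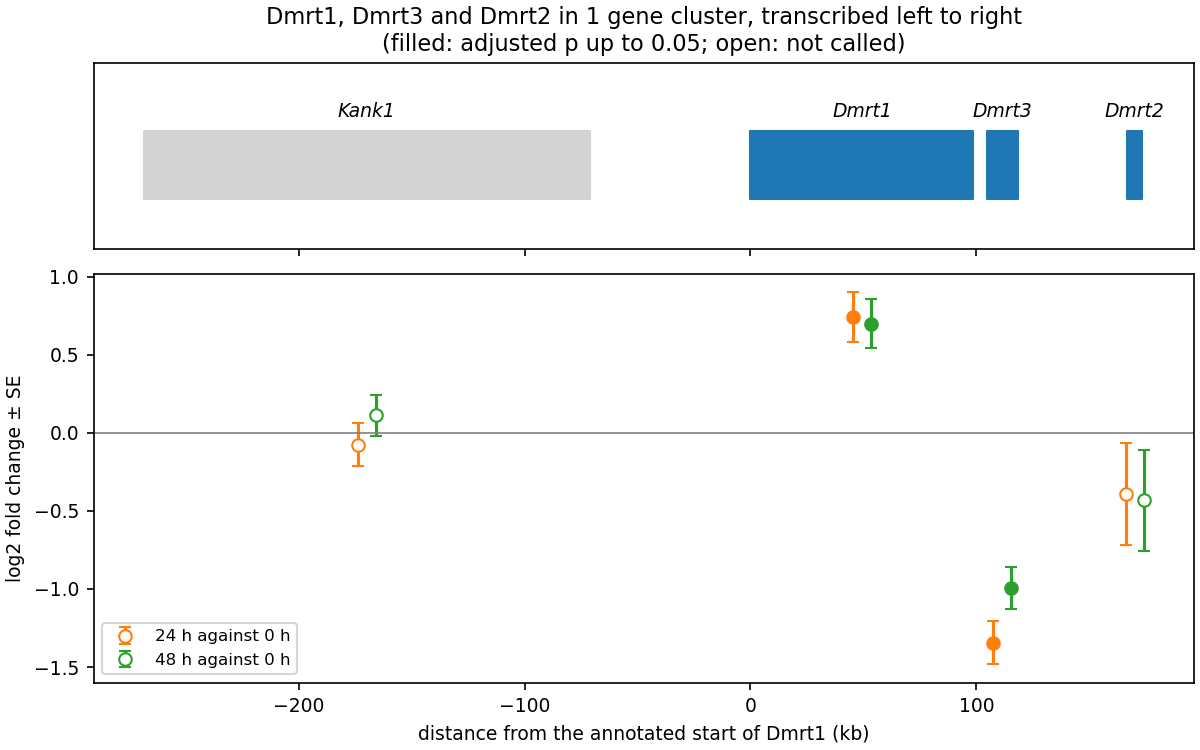
Upper panel, gene spans of Kank1 and of the cluster of Dmrt1, Dmrt3 and Dmrt2, by distance from the annotated start of Dmrt1 in kb. Lower panel, log2 fold change against 0 h with its SE. The 2 members 5971 bases apart lie on opposite sides of 0, Dmrt1 at 0.74 and 0.70 and Dmrt3 at -1.34 and -0.99.

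Dmrtb1, the other germline member, was lowest at 24 h and rose on the second day. Its libraries held 11.8, 14.6 and 16.4 CPM at 0 h (189, 295 and 329 counts), 9.37, 9.56 and 11.0 at 24 h, and 13.1, 16.9 and 13.8 at 48 h. The 24 h libraries lay below all others, and those of 0 h and 48 h overlapped. The lower value at 24 h did not pass the threshold (log2 -0.50, SE 0.16, 95% interval -0.89 to -0.12, edgeR adjusted p = 0.0617), though it did without 0 h replicate 1 (edgeR adjusted p = 0.0176). The step from 24 h to 48 h was 1.45-fold (log2 0.54, SE 0.13, edgeR adjusted p = 0.0175), a call lost without 24 h replicate 1 (edgeR adjusted p = 0.0664) or 24 h replicate 2 (0.0551). The difference between 48 h and 0 h was 0.03 on the log2 scale, with a 95% interval of -0.38 to 0.45.

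Dmrta2 rose late. Its libraries held 1.18, 1.88 and 2.74 CPM at 0 h (19, 38 and 55 counts), 1.96, 2.46 and 2.00 at 24 h (40, 46 and 41 counts), and 4.81, 5.56 and 3.74 at 48 h (92, 128 and 74 counts). The 0 h and 24 h libraries overlapped, and all 48 h libraries lay above both groups. The rise from 24 h to 48 h was 2.19-fold (log2 1.13, SE 0.21, edgeR adjusted p = 0.00664) and was called with any 1 library left out, though not with all 9 libraries in 1 fit (edgeR adjusted p = 0.0552). Against 0 h the 48 h level was 2.42-fold higher (log2 1.27, SE 0.33, edgeR adjusted p = 0.0248), a call lost without 0 h replicate 2 (edgeR adjusted p = 0.0830), 48 h replicate 1 (0.0815) or 48 h replicate 2 (0.0934). At 24 h the log2 difference from 0 h was 0.15, with a 95% interval of -0.64 to 0.94. Between 24 h and 48 h, 5 of 6 myoid markers and 7 of 8 fibroblast markers were also called higher, beside 8.61% of all genes tested. The remaining fibroblast marker, Pdgfra, was called lower (log2 -0.31, edgeR adjusted p = 0.0268), beside 12.7% of all genes. The part of these cell types in the rise of Dmrta2 was not tested.

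Dmrta1 was at the limit of detection. Its counts were 1, 6 and 2 at 0 h, 0, 0 and 2 at 24 h, and 5, 1 and 1 at 48 h. In the 2 libraries with no count, a level of up to 3 counts, 0.147 and 0.160 CPM, is compatible with the observed 0, which covers counting error only. The counts of all 3 times overlapped, and no fold is given.

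**Figure D5:**
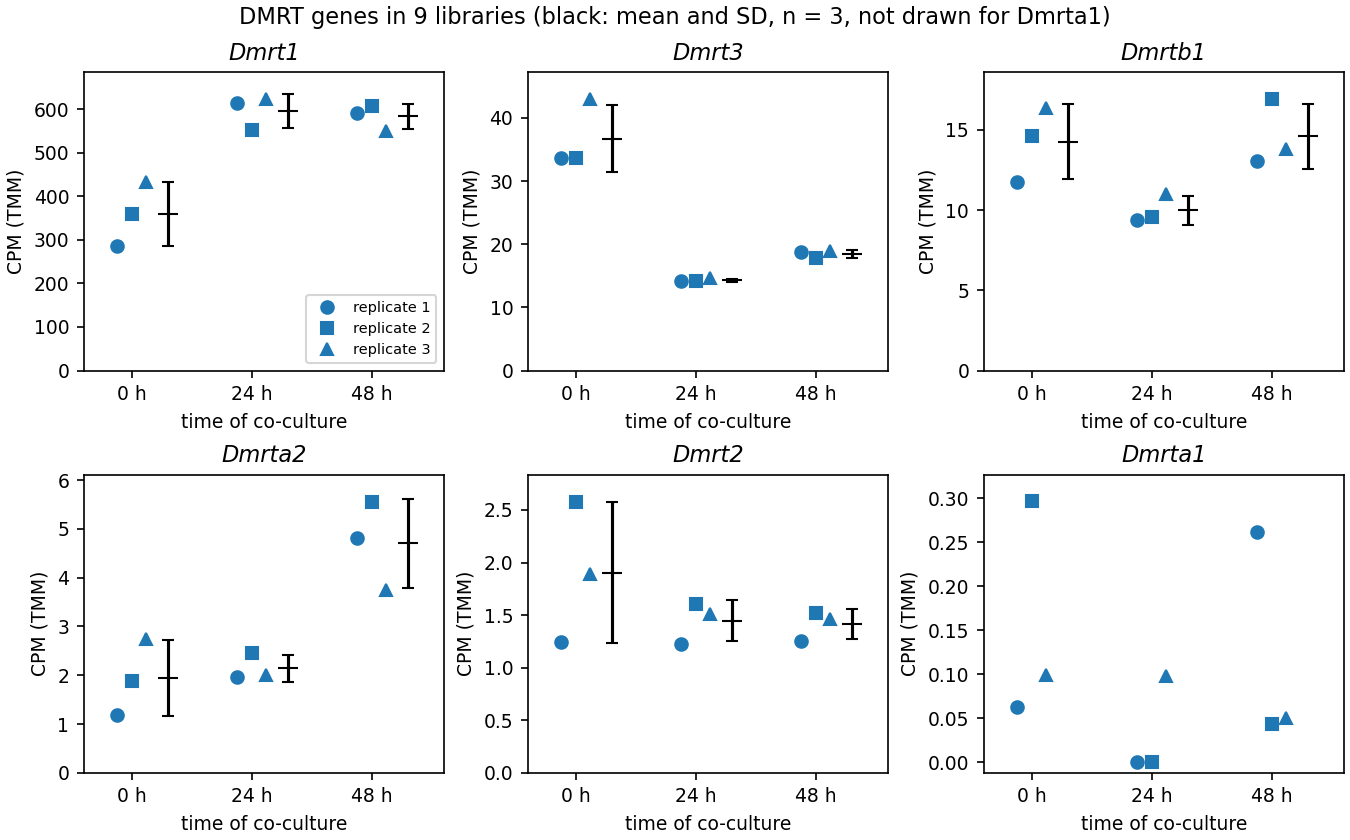
CPM of each member in the 9 libraries, by time of co-culture, with a symbol per replicate and the mean and SD in black (n = 3). Dmrt1 steps up and Dmrt3 steps down after 0 h, Dmrtb1 is lowest at 24 h, Dmrta2 is highest at 48 h, and the 3 times overlap for Dmrt2 and Dmrta1.

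Libraries of the compared groups did not overlap for Dmrt1, Dmrt3 and Dmrtb1 at 24 h against 0 h, for Dmrt1, Dmrt3 and Dmrta2 at 48 h against 0 h, and for Dmrt3, Dmrta2 and Dmrtb1 at 48 h against 24 h. Over all genes tested, 43.4%, 48.3% and 39.6% did not overlap in these comparisons.

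At 24 h and 48 h against 0 h and at 48 h against 24 h, 4, 5 and 4 relatives were tested. None was called higher, beside 11.4%, 13.0% and 8.61% of all genes tested. Called lower were 2, 3 and 2, beside 14.2%, 18.5% and 12.7%. The last counts, 3 and 2, each include Dmrtc1c1 and Dmrtc1c2. Whether so few genes depart from these shares was not tested. Dmrtc1a held 8 to 12 counts at 0 h, 6 to 14 after 24 h and 9 to 18 after 48 h and was called in no comparison. Dmrtc2, the meiotic relative with a DM domain, held 18.9, 25.1 and 25.6 CPM at 0 h, 15.6, 16.4 and 14.7 after 24 h and 17.3, 18.9 and 15.0 after 48 h. It fell 1.48-fold at 24 h (log2 -0.56, SE 0.15, edgeR adjusted p = 0.0306), a call lost on leaving out any library but 0 h replicate 1, with adjusted p of 0.0514 to 0.125 in those fits, and its log2 difference at 48 h was -0.44 (edgeR adjusted p = 0.0788). Dmrtc1c1 and Dmrtc1c2 match each other over 100% of their transcripts, at 97% identity or more, so that the split of reads between them is uncertain. Summed, they held 33.8, 49.1 and 51.6 CPM at 0 h, 34.5, 38.7 and 38.6 after 24 h and 16.1, 18.6 and 12.1 after 48 h. Each fell from 24 h to 48 h, 2.46-fold and 2.34-fold (edgeR adjusted p = 0.00219 and 0.000337). Dmrtc1b, which shares 31.4% of its transcript with Gm9126 and Gm9133, went from 14 to 29 counts at 0 h to 4 to 6 after 24 h and 7 to 11 after 48 h. Its falls of 4.73-fold and 2.90-fold were called (edgeR adjusted p = 0.0106 and 0.0299), but the first was lost without 24 h replicate 2 (0.0544) or 3 (0.0515), and the second without any 1 library except 0 h replicate 3, with adjusted p of up to 0.113.

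Genes that general knowledge ties to Dmrt1 or Dmrtb1 function in germ cells were taken as a list of 8, with earlier results of these data known. The paper had already reported Stra8 and Kit higher and Gfra1 and Zbtb16 lower in these data. Shares of all genes are therefore given for scale and do not test the list. At 24 h against 0 h, 4 rose (Stra8, Tbx1, Sohlh1 and Kit) and 2 fell (Gfra1 and Id4), where 11.4% of all genes tested were called higher and 14.2% lower. The median log2 fold change of the 8 was 0.92. Stra8, the meiotic entry gene that Dmrt1 is known to hold back, went from 2.58 ± 0.598 CPM at 0 h to 912 ± 55.8 after 24 h and 485 ± 23.5 after 48 h. Both later levels of Stra8 stand beside levels of Dmrt1 above those at 0 h. Sohlh1, a factor of spermatogonial differentiation that Dmrt1 is known to activate, went from 55.6 ± 9.17 to 236 ± 21.7 and 216 ± 18.1 CPM, a 4.27-fold rise at 24 h (edgeR adjusted p = 0.000103). The T-box factor gene Tbx1 rose 3.48-fold at 24 h and a further 1.91-fold by 48 h (edgeR adjusted p = 0.00441 and 0.00544).

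The differentiation receptor Kit rose from 8.47 ± 1.26 to 567 ± 34.5 CPM after 24 h and stood at 330 ± 7.74 after 48 h. Gfra1, the GDNF co-receptor of stem spermatogonia, fell 6.27-fold at 24 h (edgeR adjusted p = 1.57e-05), and Id4, a stem cell regulator, fell 5.64-fold (edgeR adjusted p = 3.75e-05). At 48 h against 0 h the same list had 4 genes higher and 3 lower, with the stem cell factor Zbtb16 1.48-fold lower (edgeR adjusted p = 0.0238), beside 13.0% and 18.5% of all genes and at a median of 0.88. From 24 h to 48 h, 2 rose, Tbx1 and Id4, and 5 fell, Stra8, Sohlh2, Kit, Zbtb16 and Gfra1, beside 8.61% and 12.7% of all genes and at a median of -0.32.

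Genes of the tissues where Dmrta1, Dmrta2 and Dmrt2 are best known gave few measurable values. No list was used for the spinal interneurons for which Dmrt3 is known. Of 9 forebrain genes, 3 could be tested at 24 h and 4 at 48 h against 0 h, and 3 at 48 h against 24 h. Lhx2, a cortical patterning factor, fell from 31.8 ± 2.19 CPM at 0 h to 10.4 ± 0.904 after 24 h and 8.28 ± 0.982 after 48 h (edgeR adjusted p = 0.000159 and 8.58e-05). None of those tested was called higher. Of 6 somite genes, 2 could be tested in each comparison with 0 h and 1 at 48 h against 24 h. Meox1 fell from 3.05 ± 0.916 CPM at 0 h to 0.233 ± 0.0678 after 24 h and 0.0633 ± 0.0204 after 48 h (edgeR adjusted p = 0.000678 and 0.000181), and none of those tested was called higher.

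The genes whose log2 CPM followed each member most closely over the 9 libraries were sought among 9672 genes with a mean of at least 10 CPM. The points share their 3 time points, so that the values are descriptions. For Dmrt1 they were Mettl13 (Pearson r = 0.994), Washc1 (0.992) and Apbb1 (0.990). Dmrt3 was followed most closely by Dhcr7, an enzyme of cholesterol synthesis (r = 0.998), the Wnt receptor Fzd7 (0.994) and the NF-kappaB inhibitor Nfkbia (0.991). Dmrtb1 ran with the transcription factor Mycn (r = 0.966), Aatf (0.959) and Klhl8 (0.946). Dmrta2 was followed by the membrane-cytoskeleton linker Ezr (r = 0.979), Smg6 (0.976) and Chtf8 (0.951), and Dmrt2, at its low counts, by Atp5g2 (0.912), Cox7b (0.904) and Rae1 (0.899). By Spearman's rho the gene listed first was Guk1 for Dmrt1, Lpcat1 for Dmrt3, Trmo for Dmrtb1, Rae1 for Dmrt2 and again Ezr for Dmrta2. Over 9 libraries rho takes few values and genes tie, so first place need not belong to 1 gene alone. For Dmrt1, Mettl13 and Apbb1 shared rank 31 at a rho of 0.967.

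Promoter windows of 300 bases, from 250 before the transcription start to 50 after it, were searched in RefSeq sequence of GRCm38.p6 for the letters ACATTGT, the core of the word that DM domains bind, and for AGGTCA, the core word of nuclear receptors, on both strands. Windows were matched for 5 members, Dmrt2, Dmrt3, Dmrta1, Dmrta2 and Dmrtb1, with 6 windows in all. AGGTCA was in none of the 6, and in 16.3% of the 32851 windows of all genes. ACATTGT was in 1 of the 6 and in 3.0% of all windows. The match lay 55 bases before the RefSeq start of Dmrta2, which is upstream of the GENCODE start given above, 109978053. The windows of Dmrt3 and Dmrtb1, the other members called higher between 24 h and 48 h, held none. It is shown with its flanks on the plus strand, the word in capitals.
Dmrta2, chr4:109977960-109977986: ggcaggcgccACATTGTtgtccaattc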

How the data were processed

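The authors deposited gene counts for each of the 9 libraries, the number of reads on each gene without normalization, and the submitters' processing notes name fastp, HISAT2, featureCounts and GRCm38, with no versions or strand setting in the sources used here. Symbols, positions and lengths came from GENCODE M21, which held 45229 of the 46078 identifiers, and promoter windows from RefSeq. Each comparison used its 6 libraries, a filter by filterByExpr, TMM scaling, and a quasi-likelihood test (edgeR 4.0.16 under R 4.3.3, two-sided). P-values were adjusted by Benjamini-Hochberg over the genes tested, at a threshold of 0.05. DESeq2 1.42.0 was an alternative. FPKM were computed from the counts over the union of exons. Log2 CPM for likeness used a prior count of 2. A level of 3 counts was taken as the floor. Shared sequence was sought with BLAST 2.17.0. Scripts were tested on simulated data. Members, gene lists and tests were chosen with earlier results of these data known. Named genes are the members, the relatives, neighbours, list members and the 3 genes most like each member. Nothing states that the biological replicates were separate cultures, so p-values measure the spread between these samples. Replicate numbers were not used to pair the libraries in the main fits. Same-numbered libraries correlated between -0.28 and 0.196 in their deviations from group means, over 0.1 in 1 of 9 pairs. Differently numbered libraries ranged from -0.392 to 0.38. Deviations from means of 3 libraries cannot decide whether the replicates were paired. Results of a few list members are not reported here.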

Additional observations from a re-analysis of the deposited data

Results flagged for a closer look

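For 5 genes the change from 0 h differed between 24 h and 48 h, by the direct edgeR test of 48 h against 24 h, which cancels the shared 0 h libraries. Among the members, the log2 change from 0 h was higher at 48 h than at 24 h by 0.355 for Dmrt3, by 1.13 for Dmrta2 and by 0.54 for Dmrtb1. Among the relatives the difference was -1.30 for Dmrtc1c1 and -1.23 for Dmrtc1c2, which share their whole transcript sequence and count as 1 observation.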

How the results depend on the processing

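With all 9 libraries in 1 fit, the genes called between 48 h and 24 h went from 3732 to 1043, and the members called from 3 to 0 (Dmrta2 edgeR adjusted p = 0.0552, Dmrtb1 0.0782, Dmrt3 0.104), with 3 members at an unadjusted p under 0.05 in that fit and 3 called by DESeq2. The cause was not tested. Leaving out 1 library gave 2607 to 6023 genes at 24 h against 0 h, 3471 to 7116 at 48 h against 0 h and 1857 to 4356 at 48 h against 24 h, and 1 to 3 members called in each comparison. The lowest gene counts came without 24 h replicate 2, without 48 h replicate 1 and without 48 h replicate 1.

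The falls of Dmrt3 against 0 h were called in every alternative fit, and the rises of Dmrt1 in all fits but the 6 omissions of a library named above. A replicate block, with pairing by number not known, left 2, 2 and 2 members called. The block took Dmrta2 at 48 h against 0 h (log2 1.32, edgeR adjusted p = 0.0551) and Dmrt3 at 48 h against 24 h (log2 0.36, 0.0532) out of the calls. Dmrtc2 at 24 h (0.0827) and Dmrtc1b at 48 h (0.0615) against 0 h were lost as well. The block changed no other call of a member or relative. The lower value of Dmrtb1 at 24 h was called with all 9 libraries in 1 fit (log2 -0.52, edgeR adjusted p = 0.0337) and with GC and length offsets (-0.49, 0.0157).

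Signs turned only in values that were not called. With 1 library left out, Dmrta2 at 24 h against 0 h ran from -0.0959 (without 0 h replicate 1) to 0.505, and Dmrtb1 at 48 h against 0 h from -0.0940 to 0.175, with -0.0836 without 0 h replicate 1. Between 24 h and 48 h, Dmrt1 ran from -0.0944 to 0.00611 and was 0.0649 with GC and length offsets and 0.0660 with these and the replicate block. Dmrt2 ran from -0.148 to 0.0579 and was 0.111 and 0.108 with the same offsets.

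Scaling by library size alone put the median log2 fold change of all genes at 0.12 and 0.13 against 0 h, from 0.01 and 0.02, and moved the share of calls that were higher from 44.5% to 57.1% at 24 h and from 41.2% to 52.8% at 48 h. With the longest transcript as length, Dmrtb1 and Dmrt3 changed places at 48 h, at 7.84 and 7.72 FPKM. Depth limited Dmrta1, Dmrt2 and Dmrtc1b.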

Other observations

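Genes of the retinoic acid response, a list of 10 that includes Rarb, Cyp26a1 and Rec8, moved in the same libraries as the members. At 24 h against 0 h, 7 of the 9 that were tested rose and none fell, beside 11.4% of all genes called higher and 14.2% lower, with a median log2 fold change of 2.32, and their summed level went from 37.4 to 45.8 CPM at 0 h to 234 to 245 at 24 h and 142 to 158 at 48 h. From 24 h to 48 h, 6 of 9 fell and 1 rose, beside 12.7% and 8.61% of all genes. Retinoic acid was part of the medium at 24 h and 48 h.

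Near the members on chromosome 4, the lipoprotein receptor gene Lrp8, next to Dmrtb1, fell 1.75-fold at 24 h and 2.81-fold at 48 h against 0 h (edgeR adjusted p = 0.00234 and 0.000278), while Glis1, nearer to Dmrtb1 on its other side, was not called and held 45.9 ± 5.68, 57.2 ± 8.75 and 57.7 ± 8.01 CPM at 0 h, 24 h and 48 h. Elavl4, an RNA-binding protein gene next to Dmrta2, 220034 bases away, rose 2.28-fold at 48 h against 0 h (edgeR adjusted p = 0.0341). Its counts were low, 12 to 19 at 0 h, 14 to 27 after 24 h and 32 to 43 after 48 h. The step from 24 h to 48 h was not called for Elavl4 (edgeR adjusted p = 0.0727). Faf1, 14092 bases from Dmrta2 on its other side, was not called and held 134 ± 16.4, 120 ± 1.82 and 136 ± 7.60 CPM. Cdkn2b, a cell cycle inhibitor next to Dmrta1, held 13.8 ± 1.89, 8.17 ± 0.397 and 12.4 ± 0.512 CPM at 0 h, 24 h and 48 h. It was called 1.67-fold lower at 24 h against 0 h (edgeR adjusted p = 0.0125) and 1.51-fold higher at 48 h against 24 h (edgeR adjusted p = 0.00563). At 48 h against 0 h it was not called.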
